A study of Mus musculus with 6 samples.

Results

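The nuclear genes of respiratory complexes II to V were taken as the entries whose gene name begins with *Uqcr*, *Atp5* or *Cox* followed by a digit, together with *Sdha*, *Sdhb*, *Sdhc*, *Sdhd*, *Cyc1* and *Cycs*. Entries with -ps in the name, which is given to pseudogenes, were left out. Among the entries left out, *Cox5b-ps* is typed as protein coding in GENCODE release M39 and was at a TPM of 68.5 to 95.6. The rule found 61 of the 56884 gene IDs in each table, and 55 of these reached a TPM of 0.5 in 3 or more of the 6 libraries and were tested. TPM is a level per transcript length, expressed relative to the sum over all genes of the library, and therefore gives shares of the RNA and not absolute amounts. The other 6 entries were *Cox4i2*, *Cox7b2*, *Cox8b*, *Cox8c*, *Cox20b* and a second gene ID under the name *Atp5o*, which was listed at 0 throughout. The tables use older names for many subunits of complex V, such as *Atp5a1* and *Atp5b* for the α and β subunits of the catalytic head, and these names are kept here.

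RNA was sequenced from an immortalized mouse line of stromal vascular fraction (SVF) cells from subcutaneous white fat. The cells stably carried a retroviral, HA-tagged PPARγ2 with lysine 382 replaced by glutamine (K382Q, which mimics acetylation) or by arginine (K382R, which mimics deacetylation). The labels write the protein as PPARr2. Both mutants were selected with puromycin, and both were at day 2 of beige adipocyte differentiation in the same mix of hormones (insulin at 5 µg/mL, dexamethasone at 2 µg/mL and T3 at 1 nM) and small molecules (IBMX at 500 µM, indomethacin at 125 µM and rosiglitazone at 0.5 µM), with 3 biological replicates of each. Neither wild-type nor undifferentiated cells were among the samples, so every difference is between the mutants, and its p-value measures the spread between these replicates. Whether the replicates came from separate transductions or from cultures of 1 line per mutant is not given in the sources used here, so the spread may be partly technical.

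The aligned length per library was 5.95 to 7.50 Gb in K382Q and 6.53 to 8.15 Gb in K382R cells, and 22663 to 23837 genes were above 0. *Pparg*, which is read from the cells' own gene and from the transgene without distinction, was at a TPM of 1104 to 1333 in K382Q and 1590 to 1632 in K382R cells. Its log2 fold change in K382Q against K382R was -0.43 (limma, adjusted p = 0.00098). The paper describes the 2 mutant proteins as expressed at largely similar levels. In these samples, a different level of the transgene and the substitution itself cannot be told apart. Over all 15426 tested genes, the median log2 fold change of K382Q against K382R was -0.14 on the TPM scale, so most genes lay slightly below 0 before any group was considered. With a median-ratio scaling in place of the TPM total, this median was 0.0032, and 3057 genes were called higher and 3153 lower in place of 1717 and 5698.

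The respiratory chain passes electrons from NADH and succinate to oxygen and uses them to pump protons across the inner mitochondrial membrane. Complex II (succinate dehydrogenase) feeds electrons from succinate into the quinone pool, complex III (the cytochrome bc1 complex) hands them to cytochrome c, and complex IV (cytochrome c oxidase) passes them to oxygen. Complex V (ATP synthase) makes ATP from the proton gradient. All subunits of complex II are nuclear, whereas complexes III, IV and V each join nuclear subunits to a few that mitochondrial DNA encodes. In brown and beige adipocytes the chain runs at a high rate because uncoupling dissipates the gradient as heat, and some subunits of complex IV exist there as isoforms shared with heart and skeletal muscle.

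Most nuclear genes of complexes II to V were higher in K382Q than in K382R cells, and most of the differences were small. Among the 55 tested members, 42 were called higher and 2 lower by limma at a Benjamini-Hochberg adjusted p under 0.05. Over all tested genes, 11.1% were called higher and 36.9% lower. The members' median log2 fold change was 0.27, and 52 of the 55 lay above the median of all tested genes. Only *Cox7a1* and *Cox6b2*, both tissue isoforms of complex IV, also passed a fold change of 2, which 3.88% of all tested genes did together with the adjusted p. The K382Q libraries all lay above the K382R libraries in 43 members, which was so for 14.1% of all tested genes. The tested members together made up 3.0% to 3.1% of the TPM total in K382Q and 2.5% to 2.6% in K382R cells.

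**Figure D1:**
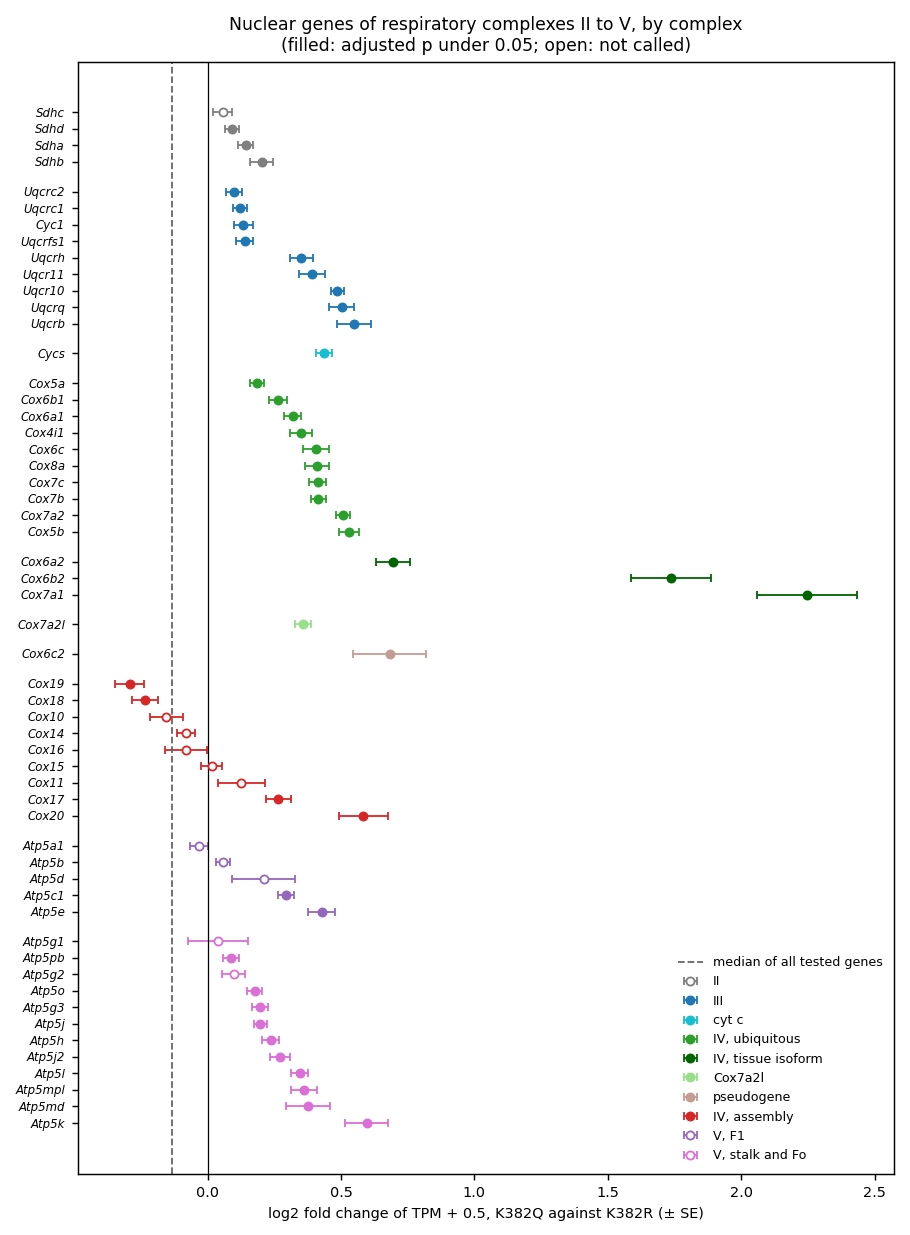
The log2 fold change of TPM + 0.5 in K382Q against K382R cells with its SE (n = 3 libraries a group) is shown for the 55 tested members, ordered by complex. Filled points passed an adjusted p under 0.05 and open points did not. *Cox7a1* (2.25) and *Cox6b2* (1.74) stand to the right of the rest, *Cox19* (-0.29) and *Cox18* (-0.24) are the called members below 0, and the dashed line marks the median of all tested genes (-0.14).

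The fold changes differed between complexes, and so did the summed levels. The 4 subunits of complex II summed to a TPM of 1001, 1024 and 1023 in K382Q and to 929, 928 and 927 in K382R cells, a mean that was 9.54% higher. For the 9 subunits of complex III, the sums were 4652, 4786 and 4916 against 3847, 3768 and 3769, which was 26.1% higher. The 10 ubiquitous subunits of complex IV summed to 10064, 10603 and 10793 against 8192, 8106 and 7995, which was 29.5% higher. Complex V stood between these and complex II, with sums of 12630, 13001 and 13100 against 11401, 11308 and 11408, which was 13.5% higher. The groups did not overlap for any of these sums, and each gave p = 0.1 in an exact two-sided permutation test, the smallest p that 3 against 3 libraries allow. The 9 genes of complex IV assembly summed to 614, 606 and 638 against 601, 597 and 584, which was 4.29% higher, and this log2 difference of 0.060 was 0.039 without K382Q replicate 3. Without *Cox17*, which was left out after its values were seen, the other 8 summed to 358, 359 and 360 against 380, 377 and 375. The direction of that sum depended on the scaling, since its log2 difference was -0.073 on the TPM scale and 0.080 with median-ratio scaling. Median-ratio scaling also made the log2 differences of the full sums larger, from 0.13 to 0.28 for complex II, from 0.33 to 0.49 for complex III, from 0.37 to 0.52 for the ubiquitous subunits of complex IV, from 0.18 to 0.34 for complex V and from 0.060 to 0.21 for complex IV assembly.

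**Figure D2:**
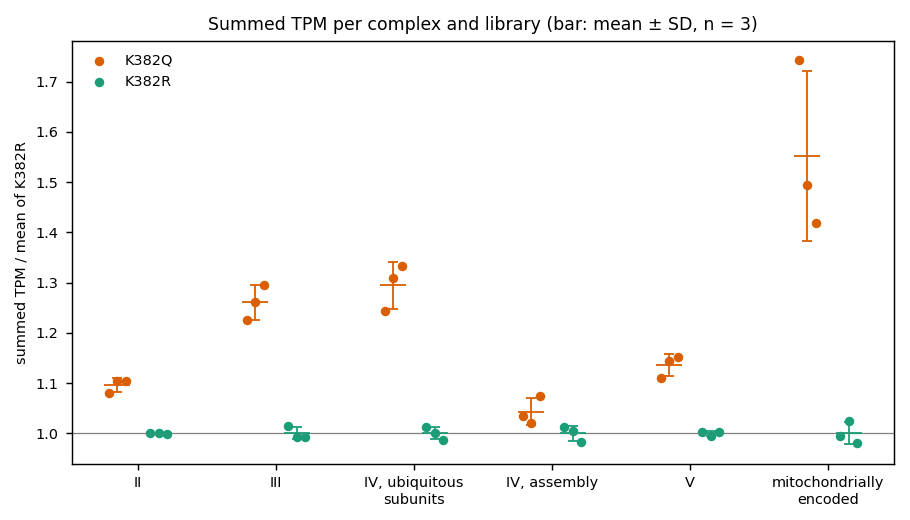
Summed TPM per library, divided by the mean of the K382R libraries, is shown for complexes II to V and the mitochondrially encoded subunits, with the mean and SD (n = 3). The tissue isoforms of complex IV (165% higher) are left out. The K382Q libraries lie above the K382R libraries for each sum shown, by the least for complex IV assembly (4.29%) and, among those shown, by the most for the mitochondrially encoded subunits (55.2%).

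The promoters of 4 members are printed to show the sequence upstream of the member with the largest fitted log2 fold change (*Cox7a1*) and of 3 members that hold letters of known regulators of respiratory genes. Each is the 250 bases before the RefSeq start (GRCm38.p6 table), placed in GRCm39 by its sequence, 5′ to 3′ on the gene's strand. The RefSeq start was 0 to 31 bases from the gene start in the deposited tables. Capitals mark matches on either strand to the letters searched, which were GCGCANGCG (NRF1), CCGGAAG (ETS factors such as GABPA), AAGATGGC (YY1), TCAAGGTCA (ERRα), TGACGTCA (CREB) and ACGTGC (the hypoxia response element, HRE).
Cox7a1 promoter, chr7:29883346-29883595, plus strand: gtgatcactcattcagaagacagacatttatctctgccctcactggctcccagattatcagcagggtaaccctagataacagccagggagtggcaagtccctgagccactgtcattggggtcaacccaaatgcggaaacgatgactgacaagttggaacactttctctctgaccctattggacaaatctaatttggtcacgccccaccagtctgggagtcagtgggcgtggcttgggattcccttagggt
Cycs promoter, chr6:50543550-50543799, minus strand: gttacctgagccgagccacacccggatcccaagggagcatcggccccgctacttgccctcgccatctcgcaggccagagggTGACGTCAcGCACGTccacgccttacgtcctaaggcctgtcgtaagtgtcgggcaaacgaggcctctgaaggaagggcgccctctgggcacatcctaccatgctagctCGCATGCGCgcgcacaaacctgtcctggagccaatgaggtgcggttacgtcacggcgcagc
Cox6a1 promoter, chr5:115487018-115487267, minus strand: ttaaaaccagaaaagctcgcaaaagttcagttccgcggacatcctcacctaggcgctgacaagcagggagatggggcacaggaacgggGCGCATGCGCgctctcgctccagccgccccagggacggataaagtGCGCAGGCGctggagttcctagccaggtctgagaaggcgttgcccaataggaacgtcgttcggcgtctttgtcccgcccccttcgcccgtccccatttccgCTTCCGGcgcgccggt
Atp5g3 promoter, chr2:73741671-73741920, minus strand: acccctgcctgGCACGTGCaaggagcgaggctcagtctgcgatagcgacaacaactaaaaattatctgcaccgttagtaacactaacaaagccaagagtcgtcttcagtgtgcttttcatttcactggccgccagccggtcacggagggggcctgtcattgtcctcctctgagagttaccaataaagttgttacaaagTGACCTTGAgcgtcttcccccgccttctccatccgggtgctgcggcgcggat
In *Cycs* the capitals mark, in order, the CREB letters, the HRE letters on the other strand and the NRF1 letters on the other strand. In *Cox6a1* they mark NRF1 letters at overlapping places on both strands, a further NRF1 match and the ETS letters on the other strand 16 to 10 bases before the start. In *Atp5g3* they mark overlapping HRE letters on both strands, and the ERRα letters on the other strand 52 to 44 bases before the start. The *Cox7a1* window holds none of these letters.

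RefSeq windows could be matched for 42 of the 55 tested members. The NRF1 letters were in 9 of these 42 (21.4%) and in 5.86% of the windows of all 27025 genes in the table, which include noncoding genes. The ETS letters were in 12 (28.6%) against 7.83%. The YY1 letters were in 2 against 1.83%, the CREB letters in 2 (*Cycs* and *Uqcrfs1*) against 1.77%, the ERRα letters in 1 (*Atp5g3*) against 0.422%, and the HRE letters in 2 (*Cycs* and *Atp5g3*) against 5.63%. Members with NRF1 letters ranged in log2 fold change from 0.09 for *Sdhd* to 0.60 for *Atp5k*. A match is a description of the letters in the window, and no binding was measured.

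Complex II was the complex whose subunits differed least. *Sdhb*, the iron-sulfur subunit, was at a TPM of 231, 258 and 243 in K382Q and 215, 208 and 213 in K382R cells (log2 fold change 0.20 ± 0.043, SE, adjusted p = 0.0057). *Sdha*, the flavoprotein that oxidizes succinate, had the highest mean TPM of the complex, at 350, 335 and 352 against 314, 311 and 314 (0.14 ± 0.029, adjusted p = 0.0050). The mean TPM was 15.3% higher for *Sdhb* and 10.4% higher for *Sdha*, and in neither did the libraries of the mutants overlap. Of the membrane anchors, *Sdhd* rose by 0.09 ± 0.025 on the log2 scale (312, 316 and 317 against 293, 299 and 296, adjusted p = 0.019). Its call was lost in 5 of the 18 alternative settings, the trend on transcript length removed among them (0.020, adjusted p = 0.54). *Sdhc*, the other anchor and the member of the complex with the lowest level, was at 108, 114 and 110 against 107, 110 and 103, and the groups overlapped (0.06, adjusted p = 0.25), although it was called higher with FPKM, median-ratio and quantile scaling.

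In complex III, all 9 subunits rose, but by different amounts. The catalytic subunits with redox centers, *Cyc1* (cytochrome c1) and *Uqcrfs1* (the Rieske iron-sulfur protein), rose by 0.13 ± 0.037 and 0.14 ± 0.032 on the log2 scale (adjusted p = 0.019 and 0.0092). *Cyc1* was at a TPM of 611, 668 and 652 against 592, 579 and 587, and *Uqcrfs1* at 372, 388 and 383 against 352, 335 and 352. The core proteins *Uqcrc1* (0.12) and *Uqcrc2* (0.10) rose to a similar extent, and *Uqcrc2*, at 218, 217 and 222 against 211, 201 and 201, was the lowest of the complex. The libraries of the mutants did not overlap in any of these genes, although the gaps were narrow. The calls of *Cyc1* and *Uqcrc2* were each lost under some of the alternatives, *Cyc1* to an adjusted p of at most 0.29 and *Uqcrc2* to one of at most 0.097.

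The small subunits of complex III, which carry no redox center, rose more. *Uqcrb*, which takes part in quinone binding, was at a TPM of 521, 472 and 514 in K382Q and 376, 332 and 323 in K382R cells (0.55 ± 0.063, adjusted p = 0.00026). *Uqcrq* was at 469, 479 and 523 against 338, 359 and 339 (0.50 ± 0.047, adjusted p = 8.97e-05). *Uqcr10*, the most abundant of the complex, was at 840, 852 and 863 against 608, 610 and 605 (0.49 ± 0.025, adjusted p = 5.15e-06). These 3 genes were between 40.2% and 46.2% higher in mean TPM. With *Uqcrh* (0.35) and *Uqcr11* (0.39), the small subunits ranged from 0.35 to 0.55, against 0.10 to 0.14 for the catalytic and core subunits. The mean TPM of the small subunits was 1.59, 1.55 and 1.65 times that of the others in K382Q and 1.28, 1.30 and 1.26 times in K382R libraries. This grouping was drawn up after the values had been seen, so its contrast was not tested. *Cycs*, the somatic cytochrome c that carries electrons from complex III to complex IV, rose with the small subunits, from 408, 397 and 397 to 554, 525 and 548 (0.44 ± 0.031, adjusted p = 2.35e-05).

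All 14 tested subunits and isoforms of complex IV rose, *Cox7a2l* included. The 10 ubiquitous subunits rose by 0.18 to 0.53 on the log2 scale. *Cox4i1*, the subunit through which ATP regulates the enzyme, had the highest mean TPM, at 1775, 1929 and 1905 in K382Q and 1487, 1502 and 1409 in K382R cells (0.35 ± 0.042, adjusted p = 0.00033). *Cox8a*, at 1727, 1929 and 1928 against 1405, 1400 and 1394, was at a similar level (0.41 ± 0.046, adjusted p = 0.00023). *Cox7b* was at 408, 394 and 412 against 304, 300 and 306 (0.41 ± 0.028, adjusted p = 1.97e-05). *Cox6b1* was at 677, 704 and 725 against 586, 598 and 571 (0.26 ± 0.034, adjusted p = 0.00049). The libraries of the mutants did not overlap in any ubiquitous subunit. *Cox5b* (0.53) and *Cox7a2* (0.51) rose the most among them and *Cox5a* (0.18) the least, and the call of *Cox5a* was lost with the trend on transcript length removed (0.056, adjusted p = 0.084). *Cox7a2l*, which joins complexes III and IV into supercomplexes, rose by 0.36 (296, 313 and 310 against 239, 240 and 238).

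The largest fold changes of the whole set were in the tissue isoforms of complex IV. *Cox7a1* (ENSMUSG00000074218.4, chr7:29883569-29885503 in GRCm39, plus strand), the heart, skeletal muscle and brown fat form of subunit VIIa, was at a TPM of 67.9, 80.9 and 73.8 in K382Q and 19.8, 16.2 and 10.9 in K382R cells. Every K382Q library was more than 3 times as high as every K382R library, and the fitted log2 fold change was 2.25 ± 0.19 (adjusted p = 5.23e-05). *Cox7a2*, its ubiquitous partner, rose from 451, 454 and 442 to 636, 631 and 646 (0.51 ± 0.026, adjusted p = 5.17e-06). The share of *Cox7a1* in the summed TPM of both was therefore 9.65%, 11.4% and 10.3% in K382Q and 4.21%, 3.44% and 2.41% in K382R libraries, and the ubiquitous form made up most of the pair in each mutant.

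*Cox6b2* (ENSMUSG00000051811.15, chr7:4754791-4756093, minus strand), known mainly as the testis form of subunit VIb, was the lowest tested subunit. Its TPM was 3.52, 3.25 and 4.40 in K382Q and 0.66, 0.80 and 0.81 in K382R cells (1.74 ± 0.15, adjusted p = 6.14e-05). It was covered by 0.96 to 4.98 reads per base, so its level rests on few reads, and it made up 0.46% to 0.60% of the pair with *Cox6b1* in K382Q and 0.11% to 0.14% in K382R libraries. *Cox6a2* (ENSMUSG00000030785.9, chr7:127804607-127805559, minus strand), the heart and muscle form of subunit VIa, was at 56.3, 54.8 and 54.0 against 37.5, 32.2 and 32.0 (0.70 ± 0.064, adjusted p = 8.52e-05). *Cox6a1*, the form of other tissues, rose less, from 1162, 1143 and 1140 to 1382, 1474 and 1445 (0.32 ± 0.032, adjusted p = 0.00013). The share of *Cox6a2* in the pair was 3.91%, 3.59% and 3.60% against 3.12%, 2.74% and 2.73%. In each of these 3 pairs, the shares of the tissue form did not overlap between the mutants, with p = 0.1 in the exact two-sided permutation test, the smallest it can give.

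The remaining tissue isoforms were at or near 0. *Cox8b*, the muscle and brown fat form of subunit VIII, was at a TPM of 0.37, 0.97 and 0.25 in K382Q and 0.43, 0 and 0 in K382R cells, and did not reach the level for testing. It made up at most 0.050% of the pair with *Cox8a* (exact permutation p = 0.3). *Cox4i2*, the form of subunit IV that responds to oxygen, was listed at 0 in 5 libraries and at 0.16 in 1 of K382Q (p = 1 for its share, exact permutation). *Cox7b2* and *Cox8c* were listed at 0 in all 6. Of the isoforms described here as brown fat forms, *Cox7a1* was therefore at a level that could be tested, and *Cox8b* was not.

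**Figure D3:**
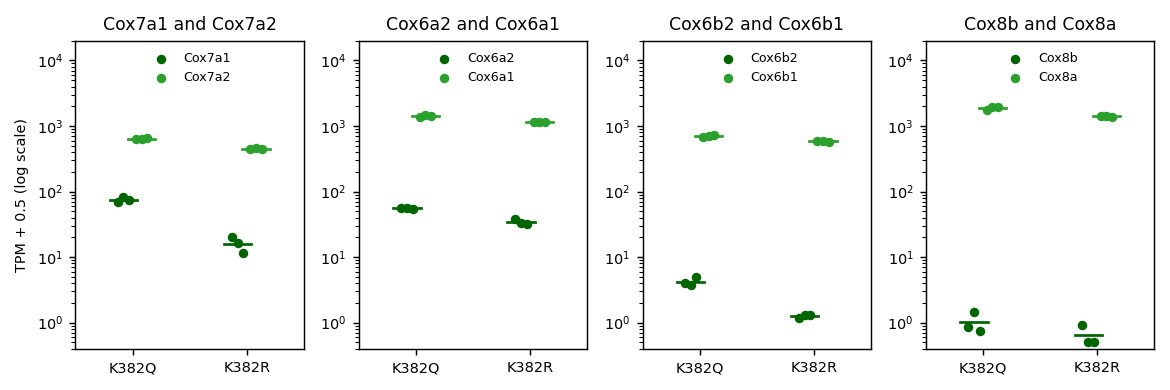
TPM + 0.5 on a log scale is shown per library for 4 pairs of a tissue isoform (dark green) and its ubiquitous form (light green), with the mean as a bar. *Cox7a1* is separated between the mutants by the widest gap, *Cox6a2* and *Cox6b2* by smaller ones, and *Cox8b* lies near 0 in both.

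Of the 9 genes of complex IV assembly, 2 rose, 2 fell and 5 were not called, with a median log2 fold change of -0.08, beside 11.1% higher, 36.9% lower and a median of -0.14 over all tested genes. *Cox20*, a chaperone of the mitochondrially encoded COX2, rose from 13.6, 12.2 and 10.7 to 18.6, 17.3 and 19.3 (0.58 ± 0.091, adjusted p = 0.0012) and had the lowest mean TPM of the group. *Cox17*, the copper chaperone of the enzyme, had the highest, at 256, 247 and 278 against 221, 219 and 209 (0.27 ± 0.048, adjusted p = 0.0026). *Cox19*, another small protein of copper delivery, fell from 27.7, 26.0 and 27.6 to 20.9, 23.2 and 22.0 (-0.29 ± 0.055, adjusted p = 0.0032). *Cox18*, which inserts part of COX2 into the membrane, fell from 48.3, 51.3 and 47.0 to 43.1, 39.7 and 41.4 (-0.24 ± 0.049, adjusted p = 0.0053). Neither fall was called under median-ratio scaling, where the log2 fold changes were -0.14 (*Cox19*, adjusted p = 0.090) and -0.09 (*Cox18*, adjusted p = 0.18). With quantile normalization they were not called either, at -0.14 (*Cox19*, adjusted p = 0.085) and -0.07 (*Cox18*, adjusted p = 0.33). *Cox11* and *Cox15* were called higher under both of these scalings, and *Cox17* and *Cox20* in all 18 alternative settings. Over all tested genes, 19.8% were called higher and 20.4% lower with median-ratio scaling, and 19.1% and 21.0% with quantile normalization. *Cox6c2*, annotated in GENCODE as a processed pseudogene that resembles *Cox6c*, was at 12.0, 13.1 and 10.2 against 6.05, 8.56 and 6.86 (0.68), and reads from *Cox6c* could have been placed there.

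Complex V had the most abundant member and a range of fold changes from about 0 upward. Of its 17 tested genes, 12 rose and 5 were not called by limma at an adjusted p under 0.05. The count that fell was 0, also at an unadjusted p under 0.05. Of all tested genes, 11.1% were called higher and 36.9% lower. *Atp5b*, the catalytic β subunit, had the highest mean TPM of all members, at 2646, 2640 and 2674 in K382Q and 2546, 2552 and 2557 in K382R cells. These libraries did not overlap, but the log2 fold change was 0.06 ± 0.026 (adjusted p = 0.12). Its call depended on the scaling, being higher with FPKM (0.14, adjusted p = 0.0030) and median-ratio scaling (0.21, adjusted p = 0.0013) and lower with quantile normalization (-0.23, adjusted p = 0.000645). *Atp5a1*, the α subunit of the same head, was at 881, 938 and 909 against 952, 924 and 915, and the groups overlapped (-0.03, adjusted p = 0.45). Its log2 fold change ranged from -0.056 to -0.011 without 1 library. It was called higher with median-ratio scaling (0.12, adjusted p = 0.045) and lower with quantile normalization (-0.10, adjusted p = 0.025). In the central stalk, *Atp5e* rose from 338, 341 and 323 to 415, 462 and 473 (0.43 ± 0.051, adjusted p = 0.00033). *Atp5c1*, the γ subunit that turns within the head, rose by 0.29, whereas *Atp5d* varied within both groups (626, 842 and 773 against 560, 692 and 679, adjusted p = 0.18) and was called in 2 of the 18 alternative settings.

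The tested peripheral stalk and membrane subunits of complex V ranged from 0.04 to 0.60 on the log2 scale, and the F1 subunits from -0.03 to 0.43. *Atp5k*, a small accessory subunit that takes part in dimers of the enzyme, rose the most, from 240, 231 and 241 to 316, 362 and 404 (0.60 ± 0.080, adjusted p = 0.00057). The accessory subunits rose by 0.27 to 0.60 and the peripheral stalk by 0.09 to 0.24, and all 9 of these genes were called. *Atp5pb*, the lowest of them in fold change, lost its call in 10 of the 18 alternative settings. The split into accessory and peripheral stalk subunits was also drawn up after the values had been seen, so its contrast was not tested. Of the 3 genes that encode the identical mature c subunit of the proton-driven ring, *Atp5g3* rose from 1198, 1169 and 1216 to 1341, 1371 and 1393 (0.20 ± 0.029, adjusted p = 0.0010), a call that was lost with quantile normalization (0.067, adjusted p = 0.089). *Atp5g2*, at 538, 583 and 591 against 550, 517 and 532 (adjusted p = 0.097), and *Atp5g1*, at 221, 249 and 275 against 240, 208 and 279 (adjusted p = 0.81), were not called, and their groups overlapped. *Atp5g2* was called higher in 4 of the 18 alternative settings, among them median-ratio scaling (0.25, adjusted p = 0.0053), and *Atp5g1* in none. *Atp5g1* was the lowest tested member of complex V. *Atp5g3* made up 63.9%, 62.2% and 61.7% of the triple in K382Q and 60.2%, 61.7% and 60.0% in K382R cells, with overlapping values (exact permutation p = 0.2), and the shares of *Atp5g1* (p = 0.5) and *Atp5g2* (p = 0.2, exact permutation) overlapped too.

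Within the members, short transcripts tended to have larger fold changes. The correlation of the log2 fold change with the log2 length of the canonical transcript was r = -0.47 across the 55 members and -0.17 across 15372 tested genes with a length. These are descriptions across genes of the same 6 libraries, which are not independent replicates. The median length was 1400 bases for the members and 2784 for all tested genes. When the trend on length was removed within each library, the median of the members was 0.21, and 40 were called higher and 2 lower. Of the tested genes with a length, 11.4% were then called higher and 34.7% lower. The small subunits of complex III then ranged from 0.30 to 0.47 and the catalytic and core subunits from 0.10 to 0.16, so these ranges still did not meet. In complex V, the accessory subunits then ranged from 0.19 to 0.45 and the peripheral stalk from 0.12 to 0.24, so these ranges overlapped. The part of transcript length in these differences was not tested further.

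**Figure D4:**
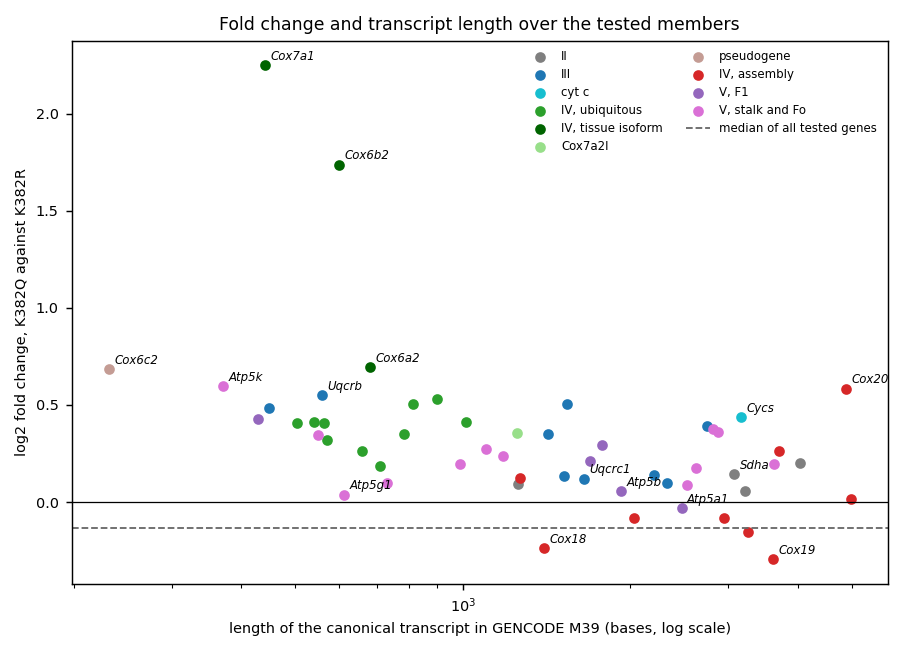
The log2 fold change of each of the 55 tested members is plotted against the length of its canonical transcript in GENCODE release M39, on a log scale of bases. Points of longer transcripts tend to lie lower (r = -0.47), *Cox7a1* and *Cox6b2* lie above the other short transcripts, and *Cycs* and *Cox20* lie above the other long ones.

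The partner genes outside the rule were compared in the same fit. All 6 mitochondrially encoded subunits of complexes III to V rose, by 0.48 to 0.77 on the log2 scale, which was more than any ubiquitous nuclear subunit of complex IV except *Cox5b* and *Cox7a2*, whose values lay within that range. *mt-Co2*, the copper-binding subunit of complex IV, rose the most, from 2457, 2519 and 2256 to 4599, 4082 and 3682 (0.77 ± 0.080, adjusted p = 0.00016). *Ndufa4*, a complex IV subunit named after complex I, was at 780, 740 and 773 against 664, 633 and 619 (0.26, adjusted p = 0.00068). *Ndufa4l2*, its hypoxia-induced paralog, was at 24.7, 23.5 and 22.6 against 1.75, 1.58 and 1.92 (3.42 ± 0.086, adjusted p = 2.93e-07). *Atpif1*, the inhibitor of ATP hydrolysis by complex V, was at 253, 256 and 266 against 256, 258 and 251 (adjusted p = 0.63).

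Assembly factors outside the members were mostly not called. Of 36 tested, 3 rose, 8 fell and 25 were not called, with a median of -0.03, beside 11.1% higher and 36.9% lower over all tested genes. *Higd1a*, a hypoxia-induced protein that binds complex IV, rose the most, from 151, 146 and 143 to 319, 345 and 344 (1.19 ± 0.040, adjusted p = 8.51e-07). *Sco2*, a copper chaperone of COX2, fell the most, from 8.19, 7.21 and 8.73 to 5.96, 6.31 and 4.70 (-0.48 ± 0.12, adjusted p = 0.014), and was not called with median-ratio (-0.34, adjusted p = 0.062) or quantile scaling (-0.33, adjusted p = 0.065). Of 13 tested genes in a mixed list of regulators, 2 rose and 4 fell, which is near the shares over all tested genes. Besides regulators of nuclear respiratory genes, the list held *Polrmt*, *Tfam*, *Tfb1m* and *Tfb2m*, which act on mitochondrial DNA, and the mitochondrial protease *Lonp1*. *Lonp1* was among the rises, and *Polrmt*, *Tfam* and *Tfb2m* were among the falls. *Ppargc1a*, the coactivator that drives mitochondrial biogenesis, rose from 1.93, 1.88 and 1.53 to 5.00, 4.57 and 4.28 (1.17 ± 0.12, adjusted p = 0.00016), and *Pprc1*, a related coactivator, fell from 40.4, 40.2 and 40.9 to 28.7, 28.6 and 29.7 (-0.47 ± 0.038, adjusted p = 4.31e-05). *Nrf1*, *Gabpa*, *Yy1* and *Esrra*, whose letters were searched in the promoters, were not called (log2 fold changes of -0.07 to 0.07).

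Some marker genes moved with these differences, and their part in them was not tested. The 8 adipocyte markers summed to a TPM of 53021 to 56608 in K382Q and 44281 to 45433 in K382R cells, of which 2 rose (*Cd36* the most, 0.43) and 4 fell (*Adipoq* the most, -1.28), beside 11.1% higher and 36.9% lower over all tested genes. The median log2 fold change of the list was -0.14, which is that of all tested genes. Most of this sum was *Fabp4*, and the other 7, *Pparg* with its transgene included, summed to 6316 to 6627 against 6846 to 6892, a log2 difference of -0.10 that was 0.053 with median-ratio scaling. Of 8 stromal markers, all 5 that were tested fell (*Dcn* the most, -1.58), with sums of 55.8 to 62.8 against 116 to 121. Of 8 brown and beige adipocyte markers, 6 were tested and 5 rose (*Cidea* the most, 2.49), with sums of 346 to 359 against 179 to 183, although *Ucp1*, counted among the 5, was below a TPM of 1 in every library. *Ucp1* and *Cidea* reached the level for testing only through the K382Q libraries. In bulk RNA, a different share of cells of a type and a different level per cell cannot be told apart. Of the 8 muscle markers, 6 were under a TPM of 0.5 in every library, *Myod1* and *Myog* were at 0, *Des* rose by 0.57 and *Acta1* fell by 0.94 on the log2 scale, and the sums overlapped (7.41 to 8.44 against 7.90 to 9.48). Leukocyte markers (3.46 to 4.69 against 3.35 to 5.18) and endothelial markers (1.60 to 2.25 against 1.71 to 1.94) also overlapped, with 7 of 8 and 5 of 6 under 0.5 in every library.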

How the data were processed

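The 6 libraries, 3 per mutant, were of 150-bp read pairs. According to the study's methods, the authors trimmed the reads with TrimGalore, used HISAT2 to align them to GRCm39, and obtained gene levels with StringTie. The release of the gene annotation is not given in the sources used here. In the deposited tables, the authors give per gene the coverage (a signal, the mean read depth per base, not normalized), FPKM (coverage scaled to the aligned bases of the library) and TPM (scaled to a fixed total). Counts were not analysed here. The aligned length of a library was estimated as coverage divided by FPKM in genes with 1 transcript, and the precision is that of 3 replicates. GENCODE M39 gave transcript lengths and gene types.

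The log2 of TPM plus a pseudocount of 0.5 was tested with limma 3.58.1 (R 4.3.3), with a variance trend on intensity, in genes that reached a TPM of 0.5 in 3 or more libraries. A fold change on this scale understates the change of low genes. P-values were adjusted over all 15426 genes by the method of Benjamini and Hochberg, and a gene was called at an adjusted p under 0.05. In simulated data, the test missed changes of 1.5-fold more often than changes of 2-fold or more. Changes smaller than 1.5-fold, such as the members' median log2 fold change of 0.27, were not simulated. Sums per complex and isoform shares were tested by exact two-sided permutation in Python 3.11.15 with scipy 1.17.1.

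The members and lists were chosen with earlier results of these data known. By rule, the genes named were the isoform pairs, the complex II subunits, *Cycs*, *Cyc1*, *Uqcrfs1*, the 2 largest called rises and falls and the highest and lowest level of each complex, the largest called rise and fall of each other list, *Ndufa4*, *Ndufa4l2* and *Ppargc1a*. Others named, such as *Uqcrc1*, *Cox5a*, *Cox5b*, *Atp5a1*, *Atp5d*, *Atp5pb*, *Cox7a2l*, *Cox6c2* and the regulators searched in promoters, were chosen after their values were seen. Alternatives were pseudocounts of 1 and 0.1, other filters, FPKM, median-ratio and quantile scaling, no intensity trend, array weights, removed length or GC trends, a replicate block and each library left out.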

Additional observations from a re-analysis of the deposited data

How the results depend on the processing

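Over 18 alternative settings, 35 of the 44 called members kept their call and direction, and the 9 others each lost the call in at least 1 setting (*Sdhd*, *Cyc1*, *Uqcrc2*, *Cox5a*, *Cox18*, *Cox19*, *Atp5g3*, *Atp5md* and *Atp5pb*). Of the 11 members not called, 8 were called in at least 1 setting, and *Cox14*, *Cox16* and *Atp5g1* in none. The count of members called higher ranged from 38 to 48. The count called lower was 2 or 3 except under median-ratio scaling, where it was 0 by limma (1 at an unadjusted p under 0.05, and 48 were then higher). Under quantile normalization the 2 called lower were *Atp5a1* and *Atp5b*, and *Cox18* and *Cox19* were not called. The median log2 fold change over the members was 0.27 and moved by more than the spread between replicates with FPKM (0.35), with median-ratio scaling (0.42), with the length trend removed (0.21) and without K382Q replicate 3 (0.24, the lowest of a range up to 0.29 over the libraries left out). With a fold threshold of 1.5 in place of 2, 5 members passed. The share of all tested genes at 1.5 is not given here, so this count cannot be read against it. Without *Cox17*, also chosen after seeing the data, the log2 difference of summed complex IV assembly was -0.073 in place of 0.060 (0.080 with median-ratio scaling). Without *Cox6c2*, an alternative chosen after seeing the data, 41 members were higher and 2 lower. The share of *Cox4i2* in its pair differed by 0 to 0.0043 percentage points without 1 library.

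Genes with a log2 fold change near 0 on the TPM scale changed sign. *Atp5a1* was at 0.051 with FPKM, 0.12 with median-ratio scaling (called, adjusted p = 0.045), -0.10 with quantile normalization (called, adjusted p = 0.025) and 0.00092 with the length trend removed. *Atp5b* was at -0.23 with quantile normalization (adjusted p = 0.000645). *Atp5g1* was at -0.097 and *Atp5g2* at -0.030 with the length trend removed, and *Atp5g1* ranged from -0.066 to 0.14 without 1 library. *Cox10* was at 0.0060 with quantile normalization. *Cox14* was at 0.0018, 0.070 and 0.022 and *Cox16* at 0.0015, 0.069 and 0.079 with FPKM, with median-ratio scaling and under quantile normalization, in that order. Without 1 library, *Cox15* ranged from -0.0025 to 0.031 and *Cox16* from -0.15 to 0.013. The cause of these shifts was not tested.

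The labels do not say whether the replicate numbers pair the samples. The deviations of same-numbered libraries correlated at -0.018, 0.051 and 0.022, and those of other pairs at -0.064 to 0.039. Such small values from 3 libraries a group cannot settle whether the samples were paired. With the replicate number as a block, 41 members were called higher and 2 lower, with a median of 0.27 and 2 past a fold of 2. Of all tested genes, 10.4% were then called higher and 34.9% lower. Under the block, *Atp5d* gained a call (adjusted p = 0.0050), and *Uqcrc2* (adjusted p = 0.055) and *Atp5pb* (adjusted p = 0.056) lost theirs. Depth limits *Cox6b2*, *Cox8b*, *Cox4i2*, *Cox20b*, *Cox7b2* and *Cox8c*, which were covered by few or no reads.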
